A study of Rattus norvegicus with 13 samples.

Results

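Respiratory complex I, the NADH dehydrogenase of the inner mitochondrial membrane, was followed through 37 genes of its subunits and assembly factors in rat fat. The members were all genes whose symbol in the platform's probe annotation starts with Ndufa, Ndufb, Ndufc, Ndufs or Ndufv, taken from probes with 1 symbol, with the probe of the highest mean over all arrays kept for each symbol. They were 34 subunit symbols and 3 Ndufaf assembly factors, among 14506 genes measured. The 34 include Ndufs6-ps1, a pseudogene symbol, and Ndufa4, whose product later work in human cells counts as a subunit of complex IV. Ndufs6, Ndufa13, Ndufc1, Ndufb1, Ndufa4l2 and the Ndufaf genes other than Ndufaf1, Ndufaf3 and Ndufaf4 were not analysed here.

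The fat came from female Sprague Dawley rats, the daughters of males that had eaten either standard laboratory chow with 9% as fat (control, n = 7) or high-fat pellets with 43% as fat (high-fat, n = 6). Mating with chow-fed females took place when the fathers were 15 weeks old. Daughters of both groups ate chow from weaning at 3 weeks until the fat was collected at 14 weeks, so only the fathers ate the high-fat diet. Each array held the RNA of 1 daughter, and values are log2 expression after RMA, which corrects background, normalizes the arrays to one another and summarises the probes of a set. The sources used here give neither the fat depot nor the litters nor the number of fathers.

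Complex I takes electrons from NADH, passes them along a chain of iron-sulfur clusters in its peripheral arm to ubiquinone, and pumps protons through its membrane arm. Its core subunits carry the chemistry and the accessory subunits surround and stabilise them, while assembly factors build the arms as separate modules and leave before the enzyme is complete. In white fat cells the respiratory chain supplies ATP for making and handling lipid, and in brown fat cells it feeds heat production through the uncoupling protein Ucp1.

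Arrays differed in what tissue they held. The fat cell hormone gene Adipoq lay between 13.64 and 13.96 in all 13 arrays. The mean of 13 skeletal muscle markers, of 16 listed, was between 7.19 and 7.34 in 9 arrays but 9.16 in high-fat 619, 11.80 in control 664, 11.97 in control 662 and 12.05 in high-fat 629. Ucp1 was 9.28 in control 658, 9.76 in control 662, 10.96 in high-fat 663 and 11.02 in high-fat 629, against 6.11 to 7.40 in the rest. No group difference was resolved for either measure (difference of -0.21 for muscle, exact permutation p = 0.938, and 0.48 for Ucp1, exact permutation p = 0.636, both two-sided over 1716 arrangements). Of 8 brown fat markers listed, Ucp1 among them, 5 were measured, 2 higher and 3 lower in high-fat arrays, with a median difference of -0.01. Their mean per array differed by 0.05 (exact permutation p = 0.895). Only Elovl3 (20% of the 5, against 7.96% of all genes) had an unadjusted limma p under 0.05, with a difference of -0.22 ± 0.09 (SE, adjusted p = 0.53). The SD of all values within an array, here called its spread, ranged from 1.79 to 1.94 in control and from 1.86 to 1.96 in high-fat arrays (exact permutation p = 0.124). Values of white fat cell markers lay higher in high-fat fat for 7 of 7 genes, against 58% of all genes, with a median difference of 0.10. These are bright genes, with mean levels from 10.61 to 13.84. Among the 7253 genes above the middle level, 84.4% were higher and the median was 0.09, so the direction of the markers was close to that of other bright genes. An unadjusted limma p under 0.05 was reached by 3 of the markers (42.9%), against 7.96% of all genes and 9.11% of genes above the middle level. No marker passed after adjustment. The mean of the 7 markers per array ranged from 12.59 to 12.87 in control and from 12.57 to 13.07 in high-fat arrays (difference of 0.12, exact permutation p = 0.140). The part of these markers in the results was not tested.

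Most complex I genes had a slightly higher mean in daughters of high-fat fathers, and none passed the test. The mean was higher for 33 of 37 members, with a median difference of 0.13 log2 units, against 58% of all 14506 genes and a median of 0.03. The 4 with a lower mean were Ndufs4 by -0.07, Ndufaf4 by -0.06, Ndufa11 by -0.01 and Ndufa2 by -0.01. Ndufs4 and Ndufaf4 were lower under all 31 alternative settings, while Ndufa11 was higher under 8 of 31 and Ndufa2 under 13 of 31. Among the 3309 genes whose mean level lay between 9.29 and 11.48, the middle range of the subunits, 88.1% had a higher mean in the high-fat group and the median was 0.09, so the direction of the members was close to that of other genes of their level.

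By limma, 0 members and 0 of all genes passed an adjusted p of 0.05 (0% called). The smallest adjusted p of a member was 0.53. An unadjusted p under 0.05 was reached by 5 of 37 members, which is 13.5%, all of them higher in the high-fat group. The background was 7.96% of all genes in either direction, 5.42% in the higher direction, and 9.55% of genes of similar level. For no member did all high-fat arrays lie above all control arrays, as they did for 0.0551% of all genes.

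**Figure D1:**
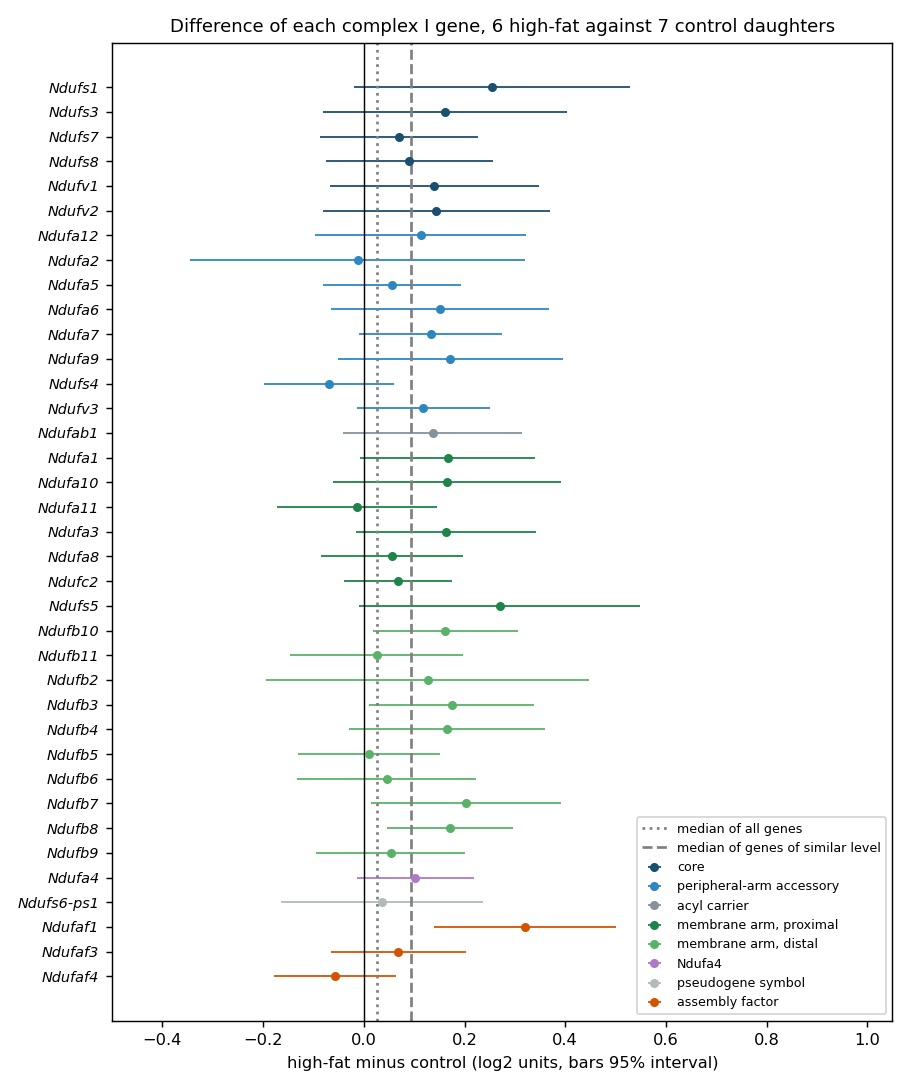
Difference in mean log2 expression, high-fat minus control, for the 37 complex I genes, ordered by role, with limma's 95% confidence intervals (7 control and 6 high-fat arrays), beside the medians of all genes (dotted) and of genes of similar level (dashed). The intervals of Ndufaf1, Ndufb8, Ndufb10, Ndufb7 and Ndufb3 do not reach 0, and those of the other members do.

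The median difference was 0.13 for the 34 subunits, of which 31 were higher, and the same 0.13 for the 32 left without Ndufa4 and Ndufs6-ps1. Averaged over the subunits, an array of the control group had a level of 10.31 ± 0.08 (SD, n = 7; 10.19 to 10.43) and one of the high-fat group 10.43 ± 0.12 (SD, n = 6; 10.22 to 10.54). The groups overlapped through high-fat 660, which was lower than 6 of the 7 controls, and control 662, which was higher than high-fat 620, 660 and 663. In whole fat, more RNA per cell and a larger share of cells rich in mitochondria cannot be told apart.

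The assembly factor Ndufaf1 had the largest difference of the 37 members. Its product joins the membrane arm as part of a chaperone complex with Ecsit, Acad9 and Tmem126b. Expression of Ndufaf1 was 7.34 at the lowest, 7.51 at the median and 7.69 at the highest control array, and 7.60, 7.83 and 8.08 in the high-fat group. All 6 high-fat arrays lay above the control mean, and the ranges overlapped only between 7.60 and 7.69. The difference was 0.32 ± 0.08 (SE; 95% interval 0.14 to 0.50), a ratio of 1.25, with an adjusted p of 0.53. With the array spread as a covariate the difference was 0.22, and without the 6 arrays that held muscle or Ucp1 signal it was 0.36.

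The other 2 Ndufaf genes did not share that difference. Ndufaf3 and Ndufaf4 products bind each other and act early in building the part of the peripheral arm that receives ubiquinone. Ndufaf3 differed by 0.07 ± 0.06 (SE), from a control range of 7.48 to 7.85 and a high-fat range of 7.66 to 7.85. Ndufaf4 ran from 8.93 through a median of 9.04 to 9.21 in control and from 8.93 through 9.01 to 9.15 in high-fat arrays. Its groups overlapped nearly whole, with a difference of -0.06 ± 0.06 (SE, adjusted p = 0.63). The median of the 3 was 0.07.

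Assembly factors that carry other names leaned the same way. Of 13 listed, 9 were measured, and all 9 averaged higher in the high-fat group, with a median difference of 0.18. An unadjusted p under 0.05 was reached by 4 of the 9, or 44.4%, against the 7.96% of all genes, and none passed after adjustment. Timmdc1, a membrane protein that helps build the membrane arm, was 8.62 at the lowest, 9.08 at the median and 9.21 at the highest control array, and 9.09, 9.24 and 9.33 in the high-fat arrays. Its difference was 0.22 ± 0.09 (SE, adjusted p = 0.53).

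Aifm1, a mitochondrial flavoprotein needed for respiratory chain biogenesis and known also from cell death, was 9.57, 9.90 and 10.15 in control and 9.81, 10.19 and 10.33 in high-fat arrays at the lowest, median and highest. Its difference was 0.25 ± 0.10 (SE, adjusted p = 0.53), and the groups overlapped. The partners of Ndufaf1 differed by 0.21 ± 0.09 for Ecsit, by 0.15 ± 0.07 for Acad9 and by 0.18 ± 0.08 for Tmem126b (SE). Ecsit and Acad9 were the remaining members of the 4, and Ecsit and Acad9 also had overlapping groups. The count of 4 was 0 with the array spread as a covariate (2.81% of all genes) and 0 without the 4 arrays of most muscle signal (3.79%). It was 1 without control 631 (4.92%) or high-fat 624 (3.5%) and 2 without control 658 (4.7%) or high-fat 619 (4.07%). The share of all genes in the main fit was 7.96%, so it was smaller under each of these settings as well. The median of the 9 was 0.16 without the 4 muscle arrays, 0.11 without the 6 with muscle or Ucp1 signal and 0.06 with the array spread as a covariate.

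All 6 measured core subunits averaged higher in high-fat arrays, with a median of 0.14, and none had an unadjusted p under 0.05. Ndufv1, which binds NADH and its flavin cofactor, ranged from 10.42 through a median of 10.47 to 10.87 in control and from 10.35 through 10.67 to 10.99 in high-fat arrays (difference 0.14 ± 0.10, SE). Ndufv2, its iron-sulfur partner, ranged from 11.41 through 11.49 to 11.83 and from 11.23 through 11.72 to 11.99 (0.14 ± 0.11). For both, the highest control array was 662, an array with muscle and Ucp1 signal, and the lowest high-fat array lay below every control.

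Ndufs1, the large iron-sulfur subunit that follows them in the electron path, had the largest difference of the core. Its values were 9.70, 9.83 and 10.29 in control and 9.73, 10.21 and 10.66 in high-fat arrays at the lowest, median and highest, and the difference was 0.25 ± 0.13 (SE, adjusted p = 0.53). The groups overlapped over most of the control range. Its highest array in each group was the one with both muscle and Ucp1 signal, control 662 and high-fat 629. The difference was 0.27 with the muscle level as a covariate, 0.22 with the Ucp1 level, 0.25 with both and 0.18 without the 6 arrays that held either signal, and 0.15 with the array spread as a covariate. Ndufs3, a subunit of the ubiquinone module, ranged from 9.04 through 9.33 to 9.69 and from 9.16 through 9.45 to 9.89 (0.16 ± 0.11). Ndufs7, which holds the last cluster before ubiquinone, ranged from 12.23 through 12.49 to 12.61 and from 12.31 through 12.54 to 12.68 (0.07 ± 0.07). Ndufs8, which carries the clusters before it, ranged from 8.98 through 9.12 to 9.26 and from 8.92 through 9.24 to 9.37 (0.09 ± 0.08). The intervals of all 3 differences spanned 0.

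**Figure D2:**
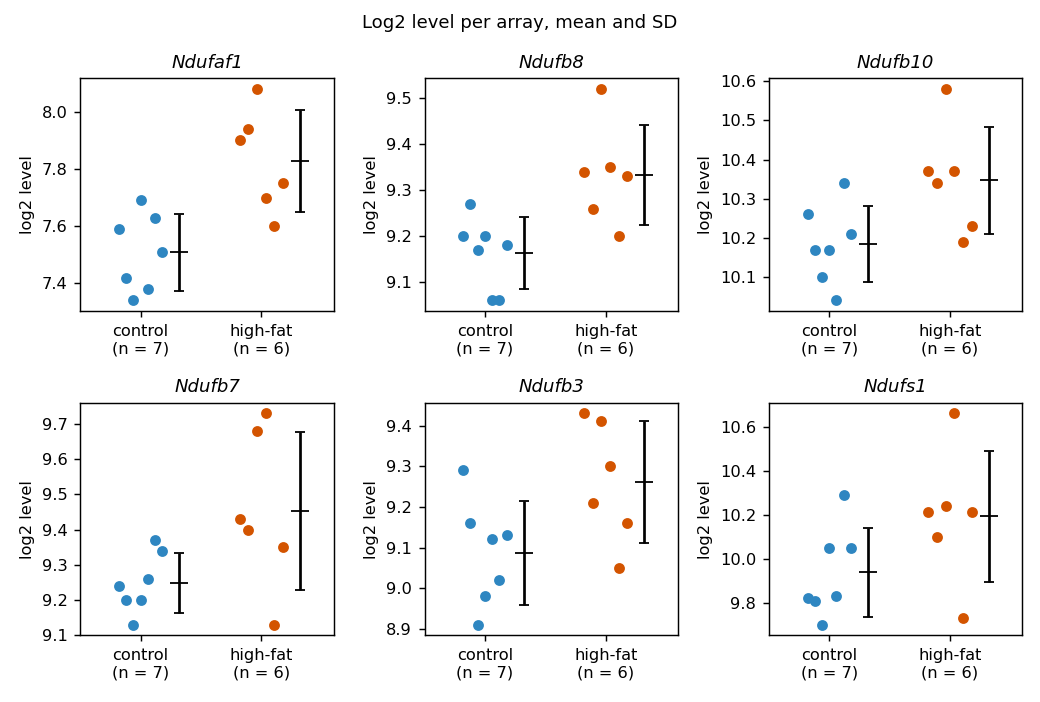
Log2 expression of Ndufaf1, Ndufb8, Ndufb10, Ndufb7, Ndufb3 and Ndufs1 in each array, control (n = 7) and high-fat (n = 6), each point 1 daughter, with the group mean and SD beside the points. For Ndufaf1 the high-fat points run from 7.60 to 8.08 and the control points from 7.34 to 7.69, and the groups overlap in every panel.

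The accessory subunits of the peripheral arm were mixed. Of 8 measured, the mean in high-fat arrays was above that of control arrays for 6 and below it for 2, with a median of 0.12 and none with an unadjusted p under 0.05. Ndufs4, a late-added subunit whose loss causes Leigh syndrome in people, ranged from 12.76 through a median of 12.84 to 12.93 in control and from 12.60 through 12.74 to 12.93 in high-fat arrays. The groups ended at the same height, and the difference was -0.07 ± 0.06 (SE, adjusted p = 0.59). Ndufa2, a small subunit of the NADH module, was 7.85, 8.73 and 8.84 in control and 8.26, 8.58 and 8.84 in high-fat arrays at the lowest, median and highest. It had the widest scatter within groups of all members, with a difference of -0.01 ± 0.16. The remaining differences were 0.17 for Ndufa9, 0.15 for Ndufa6, 0.13 for Ndufa7, 0.12 for Ndufv3, 0.11 for Ndufa12 and 0.06 for Ndufa5.

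In the distal membrane arm all 10 measured Ndufb subunits averaged higher in the high-fat group, with a median of 0.14, and 4 of the 10 had an unadjusted p under 0.05, against 7.96% of all genes and 9.55% of those of similar level. No test set this arm against the other members, and over all members the count of 5, of which these 4 are part, was 2 under several settings. Ndufb8, a subunit often used as an antibody marker of assembled complex I, ranged from 9.06 through a median of 9.18 to 9.27 in control and from 9.20 through 9.33 to 9.52 in high-fat arrays. All 6 high-fat arrays were above the control mean, and the difference was 0.17 ± 0.06 (SE; 95% interval 0.05 to 0.30), with an adjusted p of 0.53. Ndufb10, an accessory subunit held by disulfide bonds, ranged from 10.04 through 10.17 to 10.34 and from 10.19 through 10.35 to 10.58, again with all 6 high-fat arrays above the control mean (0.16 ± 0.07).

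Ndufb7, a subunit on the intermembrane-space face, ranged from 9.13 through 9.24 to 9.38 in control and from 9.13 through 9.41 to 9.73 in high-fat arrays, so its groups began at the same level (0.20 ± 0.09, SE, adjusted p = 0.53). Ndufb3, a small membrane-spanning subunit, ranged from 8.91 through 9.12 to 9.29 and from 9.05 through 9.26 to 9.43 (0.17 ± 0.08). Ndufb4, also membrane-spanning, ranged from 9.83 through 10.07 to 10.20 and from 9.88 through 10.24 to 10.44 (0.17 ± 0.09). The groups of all 3 overlapped. Ndufb2 differed by 0.13, Ndufb9 by 0.05, Ndufb6 by 0.05, Ndufb11 by 0.03 and Ndufb5 by 0.01, each with an interval that spanned 0.

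In the proximal membrane arm 6 of 7 subunits had a higher mean, with a median of 0.16 and none with an unadjusted p under 0.05. Ndufs5, a subunit with paired cysteines on the intermembrane-space side, was 9.54, 10.05 and 10.22 in control and 9.90, 10.22 and 10.66 in high-fat arrays at the lowest, median and highest (0.27 ± 0.13, SE, adjusted p = 0.53). Control 658 was its lowest array, at 9.54 against 9.94 for the next control. With the array spread as a covariate the Ndufs5 difference was 0.11. Another probe set of Ndufs5 was dimmer and differed by 0.24 ± 0.11 (SE). In a limma fit of probes its unadjusted p was 0.049, against 0.058 for the probe set used. Ndufa10, a membrane-arm subunit on the matrix side, ranged from 7.27 through 7.61 to 7.75 and from 7.39 through 7.69 to 7.999 (0.17 ± 0.11). A separate probe set shared by Ndufa10 and Ndufa10l1 was brighter and differed by 0.12 ± 0.10 (SE). Its mean was 11.45 in control and 11.57 in high-fat arrays, against 7.55 and 7.72 for the Ndufa10 probe used, the dimmest of all members. Ndufc2 ranged from 12.75 through 12.89 to 12.92 and from 12.84 through 12.96 to 13.05 (0.07 ± 0.05), and Ndufa11 ranged from 10.23 through 10.35 to 10.48 and from 10.09 through 10.33 to 10.53 (-0.01 ± 0.07). Ndufa3 differed by 0.16 and Ndufa8 by 0.06. Ndufa1, with a difference of 0.17, had all 6 high-fat arrays above the control mean, as did Ndufa7 in the peripheral arm.

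Ndufab1, the mitochondrial acyl carrier protein that serves both complex I and fatty acid synthesis, differed by 0.14 ± 0.08 (SE). Ndufa4 ranged from 12.43 through a median of 12.55 to 12.57 in control and from 12.50 through 12.62 to 12.82 in high-fat arrays (0.10 ± 0.05). Its groups overlapped between 12.50 and 12.57. The pseudogene symbol Ndufs6-ps1 differed by 0.04 ± 0.09. In all, 15 of the 37 members have RefSeq pseudogenes named after them, Ndufb4 with 7 and Ndufaf4 with 5, and their signals may include such copies where the probe sequences match.

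**Figure D3:**
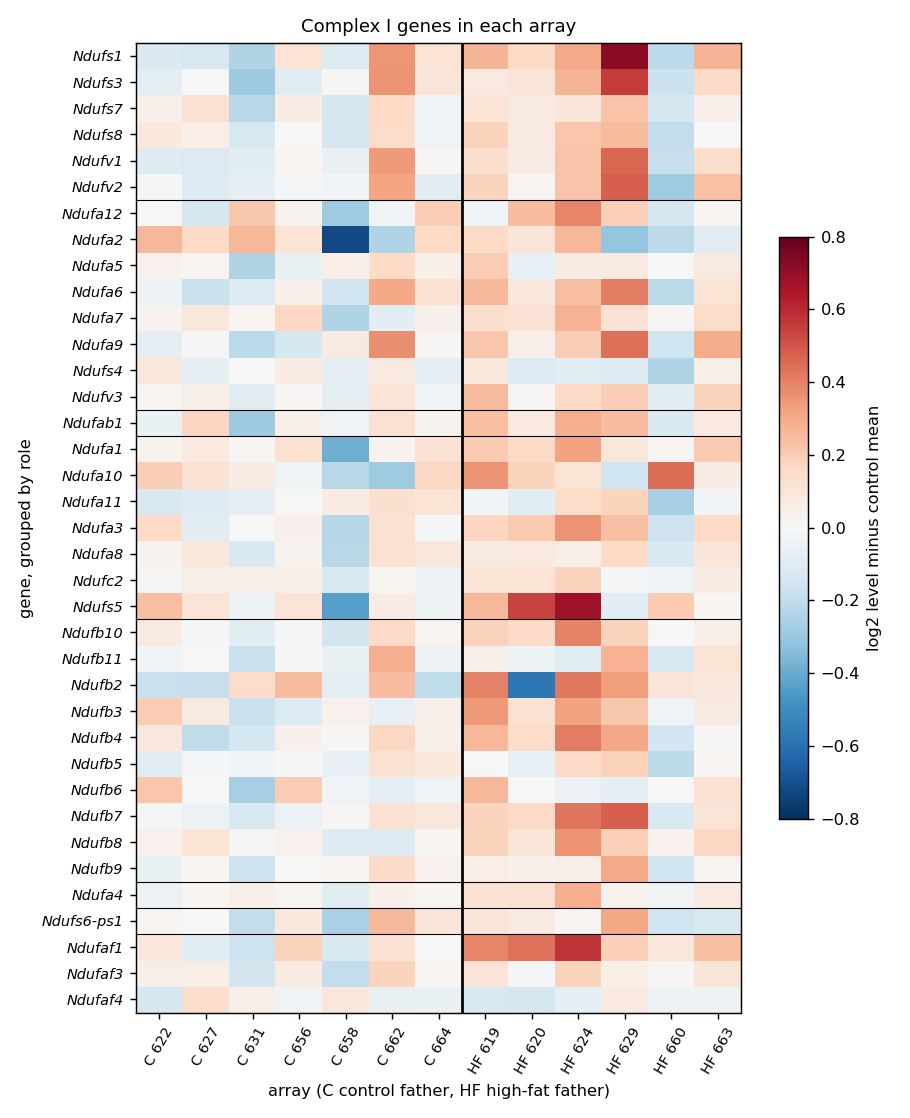
Log2 expression of each of the 37 members (rows, grouped by role) in each of the 13 arrays (columns), given as the difference from the member's control mean. High-fat 624 and 629 hold many of the highest values, and control 631, control 658 and high-fat 660 many of the lowest.

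Within a group, most members leaned together across arrays. High-fat 624 was the highest of all arrays for 15 members and high-fat 629 for 14, while control 631 was the lowest for 13, control 658 for 12 and high-fat 660 for 7. After removal of group means, the median Pearson correlation over the 561 pairs of subunits was 0.44 (Spearman 0.37), with 86.8% of pairs above 0. It is a description over 13 arrays that share tissue content and array spread, and genes of similar level had 0.41 against 0.04 for a sample of all genes. With array spread removed, the median was 0.27 for the subunits and 0.04 for genes of similar level. Ndufs8 followed the mean of the other subunits most closely (0.94). Ndufa10 (-0.43) and Ndufaf4 (-0.23) ran against it. For Ndufa10 the value is that of its own probe, the dimmest of all members, and not of the brighter shared probe set.

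**Figure D4:**
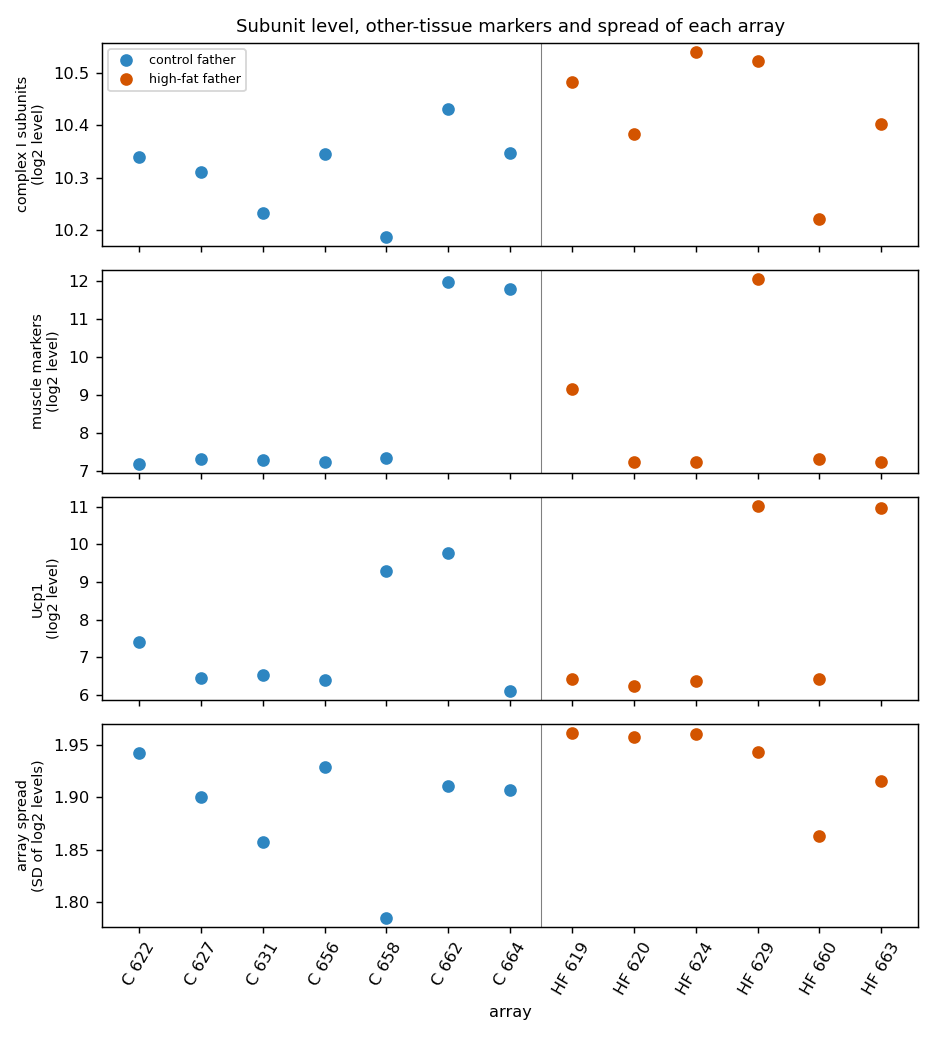
Mean log2 level of the 34 subunits in each array above the array's muscle marker level, Ucp1 level (both log2) and spread (SD of log2 levels), each point 1 array, coloured by group. High-fat 629, with muscle at 12.05 and Ucp1 at 11.02, had a subunit mean of 10.52, and high-fat 624, with muscle at 7.23 and Ucp1 at 6.37, had 10.54.

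Muscle and brown fat cells hold many mitochondria, so the counts were also taken with those signals in view. With the muscle level as a covariate 9 of 37 members had an unadjusted p under 0.05, beside 8.55% of all genes, and with the Ucp1 level 9 did, beside 11.8%. Without the 4 arrays of most muscle signal 2 did, beside 3.79% of all genes, and without the 4 arrays of most Ucp1 signal 3 did, beside 7.17%. The members' median was 0.13 with muscle as a covariate and 0.06 without the 6 arrays that held either signal. With the array spread as a covariate 25 of 37 members were higher, the median was 0.05 and 2 had an unadjusted p under 0.05, beside 2.81% of all genes and a median of all genes of 0.00. Leaving out high-fat 660 gave 18 members, with 17.3% of all genes, and leaving out control 631 or high-fat 624 gave 2.

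The daughters' numbers fall into a range of 619 to 631, with 3 control and 4 high-fat, and one of 656 to 664, with 4 control and 2 high-fat. The sources used here do not say what these ranges stand for. Group differences of the members were larger in the first range. The median difference was 0.17 with 33 of 37 higher in the first and -0.01 with 16 of 37 higher in the second. An unadjusted p under 0.05 was reached by 12 members in the first range alone, all higher, against 13.7% of all genes, 6.06% in the higher direction and 12.2% of genes of similar level, and by 0 members in the second, where 0.931% of all genes reached it. Ndufaf1, with the largest difference of the 37 members over all arrays, differed by 0.46 ± 0.10 (SE) in the first range and 0.12 ± 0.12 in the second. The second range has only 2 high-fat arrays.

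**Figure D5:**
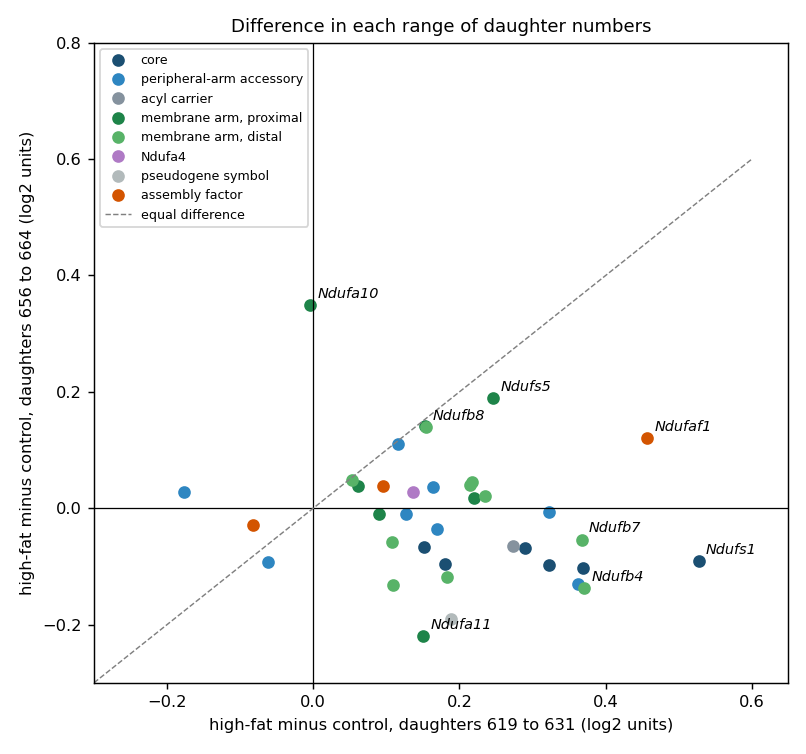
Difference of each member, high-fat minus control in log2 units, in daughters 619 to 631 (x axis, 3 control and 4 high-fat) and in daughters 656 to 664 (y axis, 4 control and 2 high-fat), each point 1 gene coloured by role, with a dashed line of equal difference. Most points lie below that line, and Ndufs1 lies at 0.53 on the x axis and -0.09 on the y axis.

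The difference between the ranges was tested in 1 model over all genes. Of the 37 members, 8 (21.6%) had an unadjusted interaction p under 0.05, each with the larger difference in the first range, against 3.47% of all genes, 1.68% in that direction and 2.87% of genes of similar level. None passed after adjustment, and the smallest adjusted p was 0.9985. They were Ndufb4 (0.37 in the first and -0.14 in the second range), Ndufa6 (0.36 and -0.13), Ndufa11 (0.15 and -0.22), Ndufb7 (0.37 and -0.05), Ndufs1 (0.53 and -0.09), Ndufv1 (0.32 and -0.10), Ndufb9 (0.18 and -0.12) and Ndufs3 (0.37 and -0.10). Muscle markers moved with it: their median group difference was 1.74 in the first range and -2.35 in the second. With the muscle level as a covariate 2 members had an interaction p under 0.05, and without high-fat 660 1 member did. The share of all genes under these settings is not given here, so these counts cannot be read as particular to the members.

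Genes of the other respiratory complexes also had mostly higher means. Of 34 genes of complexes II to V, 33 averaged higher in the high-fat group, with a median of 0.09, beside 88.1% higher and a median of 0.09 for genes whose level is similar to that of the complex I subunits. An unadjusted p under 0.05 was reached by 3 of the 34 (8.82%), near the 7.96% of all genes. In complex II, which takes electrons from succinate, the median was 0.17, and Sdha, its flavin subunit, differed by 0.21 ± 0.09 (SE) and Sdhd, a membrane anchor, by 0.15 ± 0.08. In complex III, the cytochrome bc1 complex, the median was 0.04, with 0.12 for Uqcrh and 0.20 for Uqcrc1. In complex IV, cytochrome c oxidase, it was 0.09, with 0.16 ± 0.06 for Cox6a1 and 0.17 ± 0.07 for Cox5a. In complex V, the ATP synthase, it was 0.09, with 0.18 for Atp5mg and 0.10 for Atp5f1d. None passed after adjustment, and the medians were not tested against that of complex I.

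Regulators of mitochondrial genes were also read. Of 15 measured, 12 (80%) had a higher mean, against 58% of all genes, with a median of 0.11. An unadjusted p under 0.05 was reached by 2 (13.3%), against 7.96% of all genes, and neither passed after adjustment. These were Yy1, a transcription factor that binds many mitochondrial gene promoters, by 0.17 ± 0.07 (SE), and Tfb2m, which starts mitochondrial transcription, by 0.25 ± 0.11. Ppargc1a, the coactivator known for driving mitochondrial biogenesis in brown fat, differed by -0.01 ± 0.41, and Nrf1, a factor that binds many respiratory genes, by 0.03. The wide error of Ppargc1a left no difference resolvable.

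Promoters were available for 34 of the 37 members from RefSeq, build GRCr8, as 250 bases before to 50 after the start used in its promoter table, to show the letters around the annotated starts of the genes with the largest differences. That start is the outermost start of the gene for 24 of the 34 and lies inside the gene for 10, among them Ndufaf1, whose start in that table lies 337 bases downstream of its outermost start and does not show the letters before that start. 5 short words were searched on both strands. CCGGAAG, the core of the word bound by ETS factors such as GABP, was in 7 of the 34 (20.6%) against 9.22% of 27457 promoters of all genes, and AAGATGG, the YY1 word, in 7 (20.6%) against 7.3%. GCGCATGCG, the NRF1 word, was in 2 (5.9%) against 1.66%, AAGGTCA, the ERR word, in 3 (8.8%) against 4.37%, and GGGCGG, the Sp1 word, in 15 (44.1%) against 34.9%. The median GC content was 56.8% for the members and 52.3% for all. The promoters of Ndufaf1 (chr3:127103971-127104270, minus strand), Ndufb8 (chr1:253362887-253363186, minus strand) and Ndufs1 (chr9:72073556-72073855, minus strand), the members with the largest difference, the smallest p among the subunits and the largest core difference, are given 5′ to 3′ on the strand of the gene. Capitals mark the words other than Sp1, which for Ndufaf1 is the ETS word at 24 to 18 bases before and 18 to 24 after the start, for Ndufb8 the YY1 word at 21 to 27 after it and for Ndufs1 the ETS word on the other strand, read there as CTTCCGG.
Ndufaf1: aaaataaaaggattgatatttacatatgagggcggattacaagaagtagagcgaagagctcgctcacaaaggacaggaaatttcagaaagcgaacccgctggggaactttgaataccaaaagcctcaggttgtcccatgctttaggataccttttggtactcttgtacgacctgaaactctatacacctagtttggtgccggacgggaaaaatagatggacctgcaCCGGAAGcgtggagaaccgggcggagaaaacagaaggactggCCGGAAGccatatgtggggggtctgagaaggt
Ndufb8: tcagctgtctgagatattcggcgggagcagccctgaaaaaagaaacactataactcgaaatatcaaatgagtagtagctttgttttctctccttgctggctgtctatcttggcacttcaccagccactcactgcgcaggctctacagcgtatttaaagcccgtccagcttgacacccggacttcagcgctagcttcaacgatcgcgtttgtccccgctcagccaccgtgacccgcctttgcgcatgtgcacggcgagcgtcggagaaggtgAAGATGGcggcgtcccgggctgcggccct
Ndufs1: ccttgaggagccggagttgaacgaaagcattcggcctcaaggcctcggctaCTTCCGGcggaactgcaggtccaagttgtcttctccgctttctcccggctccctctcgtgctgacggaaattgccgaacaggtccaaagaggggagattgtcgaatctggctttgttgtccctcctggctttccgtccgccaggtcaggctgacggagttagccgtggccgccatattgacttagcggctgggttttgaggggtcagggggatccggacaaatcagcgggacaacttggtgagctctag
A match names letters in the window and not a bound factor. Of the 5 members with an unadjusted p under 0.05, Ndufaf1 held the ETS and Sp1 words, Ndufb8 the YY1 word and Ndufb7 the ETS and Sp1 words, and none of the 5 words was found in the windows of Ndufb10 and Ndufb3.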

How the data were processed

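Fat RNA of 13 daughters was hybridised to Affymetrix arrays as biotinylated cRNA, with 1 array for each daughter and groups taken from the sample titles. The deposited values are log2 expression of 29214 probes, from 3.24 to 14.54, which the authors made with RMA and Partek per the submitters' processing notes. The sources used here give no versions, filters or genome build of the array. RMA normalizes arrays to one another, but differences in spread remain and can move genes by level. Background per probe was not assessed without scanner files, and precision depends on how many arrays each group has.

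Probes with 1 symbol in the platform annotation gave 14506 genes, and 527 genes with several probes were represented by the one of highest mean level. All genes were fitted with limma 3.58.1 (lmFit, eBayes) in R 4.3.3, high-fat minus control, as a two-sided test with p-values adjusted by Benjamini-Hochberg across the whole table and called under 0.05. The fit was tested on simulated data. Errors of differences are limma's moderated SE. No batch, litter or pairing is in the labels, and no number is shared between groups, so the p-values reflect only how far these samples scatter. Exact permutation tests compared single measures per array. The 7 array measures were tested, with adjusted p-values from 0.492 to 0.938.

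Members and gene lists were chosen with earlier results of these data known. Values in full are given for members with an unadjusted p under 0.05, the 3 largest and 3 smallest differences, the highest and lowest mean level, the largest scatter, the 3 smallest interaction p-values, the core subunits, Ndufaf1, Ndufb8 and Ndufa4. Of each comparison list, the 2 genes with the smallest p are named, and Ecsit, Acad9, Tmem126b, Ppargc1a, Nrf1 and Elovl3 were named in addition, after their values were seen. Alternatives covered scaling, probe choice, the level filter, the variance model, array weights, each array left out, the number ranges, and the muscle, Ucp1 and spread measures. The fits without the Ucp1 arrays, without all arrays of muscle or Ucp1 signal and with both levels as covariates, and the results for the other assembly factors, were added after seeing the data. Promoters are from RefSeq, build GRCr8.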

Additional observations from a re-analysis of the deposited data

Results flagged for a closer look

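In 7 of the 74 sets of 1 member in 1 group, the highest or the lowest array lay far from the next by Dixon's criterion, which chance meets in about 1 in 20 sets. Control 662, an array with muscle and Ucp1 signal, was the high array for Ndufb11 (12.11, next 11.83), Ndufv1 (10.87, next 10.55) and Ndufv2 (11.83, next 11.50). Control 658, the array of smallest spread, was the low array for Ndufa1 (8.63, next 9.03) and Ndufs5 (9.54, next 9.94). High-fat 660 was low for Ndufa3 (9.86, next 10.19) and high-fat 620 for Ndufb2 (8.11, next 8.77).

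Ndufb4 differed between the number ranges, with a group difference larger by 0.51 ± 0.14 (SE) in daughters 619 to 631 than in daughters 656 to 664. By limma's interaction term the difference between ranges had an unadjusted p under 0.05 and an adjusted p of 0.9985.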

How the results depend on the processing

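Under every setting run, 0 genes of the whole table passed an adjusted p of 0.05 by limma; 1155 had an unadjusted p under 0.05, and an unmoderated model gave 1075 and also 0. The count of 5 members with an unadjusted p under 0.05 is given with the share of all genes in brackets (7.96% in the main fit). It was 2 after renewed quantile normalization (6.75%) and with the number range (4.21%) or the array spread (2.81%) as a covariate. Without 4 arrays rich in muscle signal (3.79%) or all 6 with muscle or Ucp1 signal (4.32%) it was also 2. It was 3 without the 4 arrays of most Ucp1 signal (7.17%), and 9 with the muscle (8.55%) or the Ucp1 level (11.8%) as a covariate. It was 10 with arrays centred on the median (9.78%), with array weights (15%) and without the 3 arrays of smallest spread (9.62%). With muscle and Ucp1 together as covariates (14.2%) it was 10 as well. It was 12 in daughters 619 to 631 (13.7%) and 0 in daughters 656 to 664 (0.931%). Leaving out 1 array gave 2 to 18 (3.5% to 17.3%). The subunit median of 0.13 was -0.023 in daughters 656 to 664 and above 0 under all other settings. The median of the 3 Ndufaf genes, 0.07, was -0.058 among genes above the middle level, where only Ndufaf4 was left, and -0.001 with the array spread as a covariate. The count of 8 members whose difference varied between ranges was 5 with the array spread and 2 with the muscle level as a covariate, and 1 to 14 without 1 array. For that count the share of all genes under each setting is not given here. The other assembly factors, 4 of 9, numbered 2 with the number range as a covariate and 0 in daughters 656 to 664, with the array spread as a covariate, after leaving out the 4 arrays rich in muscle signal and after leaving out all 6 with muscle or Ucp1 signal, and 1 to 6 without 1 array; their median of 0.18 was 0.058 in daughters 656 to 664. The median of all genes was 0.03, 0.05 with centred arrays and 0.03 after renewed quantile normalization. The cause of these changes was not tested. No paired analysis was possible because the groups share no replicate number. The groups hold 7 and 6 arrays, and the second range 2 high-fat arrays, which limits the precision.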
